A study of Mus musculus with 4 samples.

Results

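Protocadherins are cadherin-type adhesion proteins of the cell surface, and their genes were followed here in the brain cortex of SAMP8 mice given TCQA or water. The members were every probe set whose platform gene symbol is Pcdh followed by a digit (unclustered genes) or Pcdha, Pcdhb, Pcdhga, Pcdhgb or Pcdhgc followed by a digit or c (clustered genes). The rule found 31 of the 22206 gene probe sets: 20 clustered genes, all of the beta cluster (Pcdhb1 to Pcdhb20), and 11 unclustered genes. RefSeq lists 70 genes that fit this naming pattern, and the other 39 of them (14 alpha, 22 gamma and 2 beta genes, and 1 unclustered gene) were not analysed here. The clustered genes below are therefore beta genes only.

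All animals were males of the SAMP8 line, which is inbred and shows accelerated senescence. They were kept singly from 7 months of age for 4 months, and from 11 months of age received either TCQA, a compound known here only under that short name, in an oral dose of 5 mg/kg each day for 1 month, or purified (MilliQ) water. Each group had 2 Clariom S microarrays of cortex RNA. Whether both arrays of a group stem from different animals is left unsaid by the labels. Each p-value thus reflects the spread among these 4 samples, part or all of which may be technical.

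Clustered protocadherin genes stand in tandem, and a neuron switches on only some of them, so that the mixture of isoforms on its surface works as an identity tag with which its branches recognise and avoid each other. The choice runs over promoters bound by the insulator protein CTCF and by cohesin. Beta genes each consist of a single coding exon and have no cytoplasmic part in common, unlike the alpha and gamma genes. Unclustered protocadherins lie apart in the genome and are divided into a delta1 group (Pcdh1, Pcdh7, Pcdh9, Pcdh11x) and a delta2 group (Pcdh8, Pcdh10, Pcdh17, Pcdh18, Pcdh19), which act in axon growth, cell sorting and synapses. Pcdh12 and Pcdh20 were kept apart from both groups here.

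For the delta2 group, which holds the one member with a higher level at an unadjusted p under 0.05 (Pcdh18), promoter sequence is given for 4 of the 5 genes to show what lies in front of them. The sequence of the other, Pcdh19, is not shown. The stretches come from RefSeq (GRCm38.p6), run 5′ to 3′ on the strand of the gene, and hold only bases outside the annotated gene: chr3:49757384-49757566 (minus strand) for Pcdh18, chr3:45378148-45378397 (plus strand) for Pcdh10, chr14:84443313-84443562 (plus strand) for Pcdh17 and chr14:79771313-79771562 (minus strand) for Pcdh8. Capitals mark the CCAAT box (CCAAT or ATTGG) and the GC box (GGGCGG or CCGCCC), both searched on both strands. The motifs can share a pair of bases in some of these forms, but lie apart in the stretches shown.
Pcdh18: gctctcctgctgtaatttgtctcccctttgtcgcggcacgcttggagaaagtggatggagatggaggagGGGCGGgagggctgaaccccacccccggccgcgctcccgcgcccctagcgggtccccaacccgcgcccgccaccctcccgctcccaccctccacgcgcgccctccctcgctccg
Pcdh10: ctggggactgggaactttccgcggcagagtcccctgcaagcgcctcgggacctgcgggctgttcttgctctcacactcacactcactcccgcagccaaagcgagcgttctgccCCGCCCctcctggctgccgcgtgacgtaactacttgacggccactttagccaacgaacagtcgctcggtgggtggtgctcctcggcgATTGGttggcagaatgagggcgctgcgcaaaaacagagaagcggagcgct
Pcdh17: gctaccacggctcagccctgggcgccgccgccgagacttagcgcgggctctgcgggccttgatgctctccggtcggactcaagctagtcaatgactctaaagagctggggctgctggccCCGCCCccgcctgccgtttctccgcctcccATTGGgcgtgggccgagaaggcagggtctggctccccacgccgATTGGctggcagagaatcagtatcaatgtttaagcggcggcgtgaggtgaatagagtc
Pcdh8: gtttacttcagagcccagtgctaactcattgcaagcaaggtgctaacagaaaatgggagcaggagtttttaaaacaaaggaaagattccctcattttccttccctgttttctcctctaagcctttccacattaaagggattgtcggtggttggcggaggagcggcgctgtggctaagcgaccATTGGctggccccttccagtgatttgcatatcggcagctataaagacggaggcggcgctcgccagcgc

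The 4 stretches differ in what they hold: Pcdh17 has 2 CCAAT boxes and 1 GC box, Pcdh10 has 1 of each, Pcdh8 has only a CCAAT box and the stretch of Pcdh18 only a GC box. In the full 250 bases before the listed start, Pcdh18 has a CCAAT box too, in the part that lies within its annotated gene. Of the 11 unclustered genes, 8 had such a window, and 7 of the 8 (87.5%) held a CCAAT box, against 33.8% of all 32851 windows of the same length. The exception was Pcdh7. Its window and that of Pcdh9 lay wholly within the annotated gene, with 0 bases outside it, and 199 bases of the Pcdh19 window lay outside. A GC box was in 4 of the 8, those of Pcdh10, Pcdh17, Pcdh18 and Pcdh19, against 32.7% of all windows. The windows of Pcdh18, Pcdh10, Pcdh17 and Pcdh9 held 23, 22, 21 and 18 CpG dinucleotides, where the median over all windows was 6 and the upper quartile 16. Pcdh20 had 3. These matches describe the sequence only. Windows of Pcdh1, Pcdh11x and Pcdh12 were not used here, nor was any of the beta cluster.

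Signals are log2 values, normalized by the authors, and each difference below is TCQA minus control on that scale with a limma standard error (SE). The array medians over all gene probe sets were 7.12 to 7.17. Negative control probe sets, which mark dim signal, had array medians of 7.17 to 7.32 and upper quartiles of 8.55 to 8.75. The excitatory neuron list of cortex was bright, with 11 measured genes and a mean log2 signal of 11.97 to 12.49 on the 4 arrays. The striatal neuron list was bright as well, with 8 measured genes and a mean of 13.15 to 13.71. TCQA replicate 1 was the lowest array for all 8. How much tissue from outside the cortex the samples held was not tested. Choroid plexus genes varied between arrays within both groups, with means over 9 genes of 7.40 and 8.14 with TCQA and 6.52 and 8.56 in control.

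The question of the comparison was which cortical genes differ after a month of TCQA, read here for the protocadherins. Of the 31 members, 3 had an unadjusted p under 0.05, 1 higher and 2 lower with TCQA: Pcdh18 was higher, and Pcdh9 and Pcdhb17 were lower. That is 9.68% of the members, beside 6.24% of all gene probe sets tested (3.38% higher and 2.86% lower), and none of the 31 (0 by limma with Benjamini-Hochberg adjustment over all 22206, smallest adjusted p = 0.787) passed adjustment, nor did any gene of the table (0%, 1386 at an unadjusted p under 0.05). No member was both over 2-fold apart and at an unadjusted p under 0.05, the criterion the depositors describe, which 0.374% of all gene probe sets met. The largest differences, those of Pcdh9 and Pcdh18, were 1.60-fold. Members whose 2 TCQA arrays both lay on one side of both control arrays numbered 10 of 31 (32.3%), beside 36.6% of all gene probe sets. The 95% confidence interval of a member's difference reached a median of 0.49 to either side of the estimate. For the members other than Pcdh9, Pcdh18 and Pcdhb17 it included 0, so these arrays did not settle the direction of a change.

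**Figure D1:**
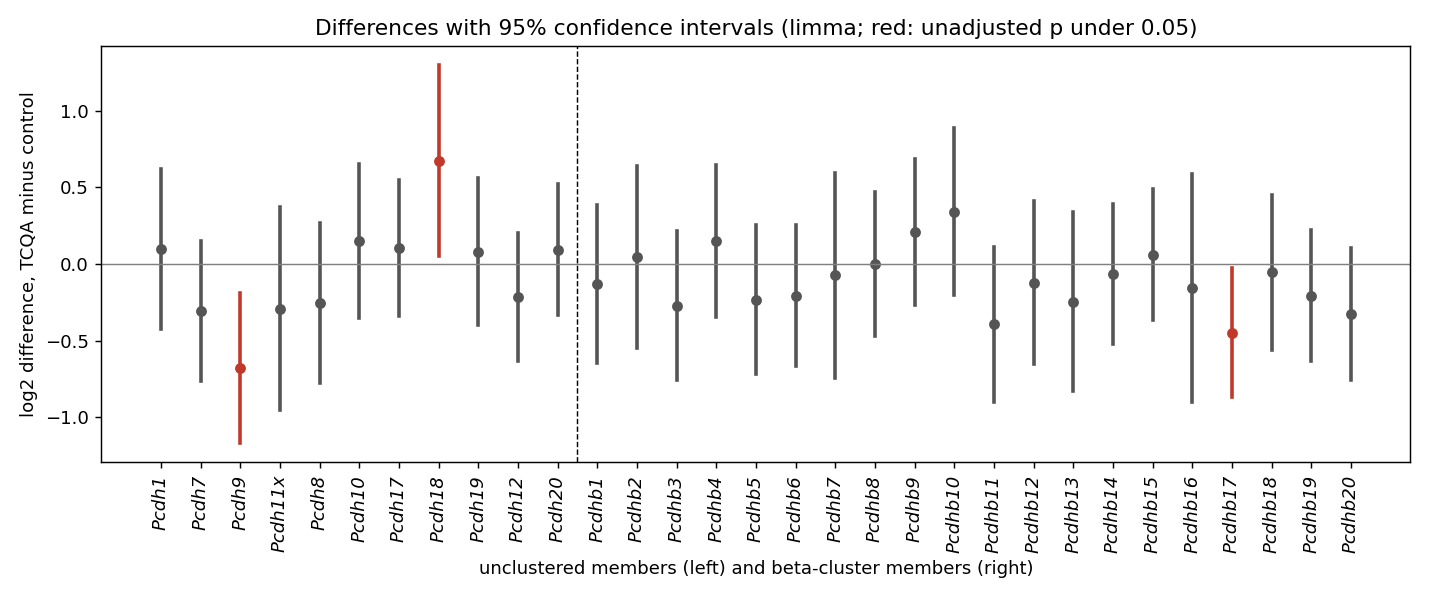
Log2 difference (TCQA minus control, vertical axis) of each of the 31 protocadherin genes, with points for the limma estimate, bars for its 95% confidence interval (n = 2 arrays per group) and red for an unadjusted p under 0.05. Only the bars of Pcdh9, Pcdh18 and Pcdhb17 leave 0 out, and no member passed Benjamini-Hochberg adjustment.

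Among the delta1 genes, 3 of 4 had a lower mean with TCQA, with a group median of -0.30 beside 0.01 for all gene probe sets. Pcdh9, a delta1 protocadherin of cortical neurons with a long intracellular tail, had log2 signals of 11.10 and 11.32 with TCQA, against 12.05 and 11.74 in control. Both TCQA arrays lay below both control arrays. Its mean was 11.21 ± 0.15 with TCQA, beside 11.89 ± 0.22 in control (SD, n = 2 each), and the difference was -0.68 (SE 0.20, 95% confidence interval -1.17 to -0.19, limma unadjusted p = 0.0142 and adjusted p = 0.787). It kept its sign with each array left out in turn, between -0.84 and -0.52, at an limma unadjusted p of 0.0156 to 0.0839, with the highest p without control replicate 1. Leaving out TCQA replicate 1 gave a limma unadjusted p of 0.0617, and an ordinary linear model without moderation 0.0715, so the call is lost in these 3 settings. The median signal of excitatory neuron markers moved in the same direction: 8 of 11 were lower with TCQA, 3 of them at an unadjusted p under 0.05 (2.86% of all gene probe sets), with a list median of -0.26 and mean log2 levels of 12.35 and 11.97 with TCQA and 12.49 and 12.29 in control. Inhibitory neuron markers went the other way, with 9 of 13 higher, 3 of them at an unadjusted p under 0.05 (3.38% of all gene probe sets), a list median of 0.38, and mean log2 levels of 10.85 and 10.68 with TCQA and 10.34 and 10.45 in control. Oligodendrocyte markers, of cells that also transcribe Pcdh9, had 4 of 9 lower and a list median of 0.03, with mean log2 levels of 11.58 and 11.81 with TCQA and 11.66 on both control arrays. The part of these cell types in the Pcdh9 difference was not tested. In such bulk tissue, fewer cells of a type and less RNA per cell cannot be told apart.

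Pcdh7, whose cytoplasmic tail binds protein phosphatase 1, was at 13.59 and 13.30 with TCQA and at 13.74 and 13.76 in control. Its groups did not overlap, with TCQA replicate 2 the lowest array. The difference was -0.31 (SE 0.19, 95% confidence interval -0.76 to 0.15), within the spread that the fit allows. Pcdh11x, the X-linked member, was at 8.57 and 9.32 with TCQA and at 9.20 and 9.27 in control, so that TCQA replicate 1 alone was low. The difference of -0.29 (SE 0.27) became 0.09 without that array, and without TCQA replicate 2 it was -0.67 (limma unadjusted p = 0.0263). Pcdh1, which is broadly transcribed in brain and epithelia, had 13.09 and 12.77 with TCQA and 12.996 and 12.67 in control, a difference of 0.10 (SE 0.21) in which the 2 groups interleave. It was -0.06 without TCQA replicate 1 and -0.07 without control replicate 2.

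Delta2 genes had 4 of 5 means above control and a group median of 0.11, mostly from small differences. Pcdh18 is the exception in size, a delta2 gene known from mesenchymal and vessel-associated cells as well as neurons. Its log2 signals were 6.09 and 6.74 with TCQA and 5.84 and 5.64 in control, all under the negative control medians. TCQA replicate 2 was the highest array, and the groups did not overlap. The mean was 6.41 ± 0.46 with TCQA, beside 5.74 ± 0.14 in control (SD, n = 2 each), and the difference 0.68 (SE 0.26, 95% confidence interval 0.05 to 1.30, limma unadjusted p = 0.0382 and adjusted p = 0.787). Without TCQA replicate 2 it was 0.35, and without TCQA replicate 1 it was 1.00. Leaving out control replicate 1 gave 0.77 (limma unadjusted p = 0.0579) and control replicate 2 gave 0.58 (limma unadjusted p = 0.133). Without moderation the unadjusted p was 0.187 in an ordinary linear model. The call held in only 1 of these 5 settings, the fit without TCQA replicate 1. A gene this dim has a less certain size of change.

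Marker lists of cells that could carry Pcdh18 were set beside it. Meningeal fibroblast genes were higher with TCQA in 13 of 14, 4 of them at an unadjusted p under 0.05 (3.38% of all gene probe sets), with a list median of 0.42 and mean log2 levels of 7.74 and 7.86 with TCQA, against 7.02 and 7.66 in control; 6 of the 14 lay under the negative control median on all 4 arrays. The low array of that list was control replicate 1, lowest for 12 of the 14, whereas the lowest array of Pcdh18 was control replicate 2. TCQA replicate 2, the highest array of Pcdh18, was highest for 6 of the 14. Mural cell genes were higher in 6 of 10, 1 of them at such a p, with a list median of 0.08 and mean log2 levels of 7.90 and 7.96 with TCQA, against 7.88 and 7.65 in control; 5 of the 10 lay under that median on all arrays. Among neuron lists, thalamic markers were higher in 7 of 10, 2 of them at an unadjusted p under 0.05, with a list median of 0.44, mean log2 levels of 8.96 and 9.49 with TCQA and 8.40 and 8.90 in control, and TCQA replicate 2 highest for 7 of the 10, as for Pcdh18. Inhibitory and excitatory neuron markers, whose values stand above, had list medians of 0.38 and -0.26. The part of any of these cells in the Pcdh18 difference was not tested.

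The other delta2 genes differed little. Pcdh10, which is linked to the removal of excitatory synapses, was at 12.29 and 11.89 with TCQA and at 12.01 and 11.88 in control. Only TCQA replicate 1 stood higher, and without it the difference of 0.15 (SE 0.21) was -0.05. Pcdh17, which acts in presynaptic assembly and axon extension, was at 11.997 and 12.23 with TCQA and at 12.02 and 12.004 in control, where the control arrays nearly coincide. The difference was 0.11 (SE 0.18), and -0.01 without TCQA replicate 2. Pcdh19, an X-linked gene of epilepsy that pairs with N-cadherin, was at 8.90 and 9.15 with TCQA and at 8.81 and 9.08 in control, a difference of 0.08 (SE 0.20) with interleaved groups. Without TCQA replicate 2 it was -0.04, and without control replicate 1 it was -0.05.

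Pcdh8, also named arcadlin, is the activity-regulated protocadherin, induced by synaptic activity and involved in the removal of N-cadherin from synapses. It was at 7.72 and 8.16 with TCQA and at 8.28 and 8.11 in control, where TCQA replicate 1 was low and the others lay close together. The difference was -0.25 (SE 0.21, 95% confidence interval -0.78 to 0.27), and -0.04 without TCQA replicate 1. The list of 30 immediate early genes, also induced by activity, had 28 lower and 2 higher, 11 of the lower ones at an unadjusted p under 0.05, where 2.86% of all gene probe sets were lower at that p. Its members with the smallest p were Ier2, Dusp1, Junb and Ccn1, at -1.06, -2.06, -1.68 and -2.27. That list was highest on control replicate 1, with a mean log2 level of 10.02 beside 9.51 on the other control array and 9.18 and 8.97 with TCQA. Pcdh8 too was highest on control replicate 1, but its lowest array was TCQA replicate 1, while that of the list was TCQA replicate 2.

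Pcdh12, the vascular endothelial protocadherin, was at 5.50 and 5.54 with TCQA and at 5.69 and 5.78 in control, under the negative control median on all arrays. The replicates lay close together and the groups did not overlap, with a difference of -0.22 (SE 0.17, 95% confidence interval -0.63 to 0.20). Limma shares the spread between genes; without that sharing, where Pcdh9 and Pcdh18 lost their calls, Pcdh12 had an unadjusted p of 0.0483 in an ordinary linear model, which is the same estimate judged by its own 4 values. Endothelial markers went the other way, with 7 of 11 higher, 3 of them at an unadjusted p under 0.05 (3.38% of all gene probe sets), a list median of 0.10, and mean log2 levels of 9.99 and 10.003 with TCQA and 9.92 and 9.84 in control. Pcdh20 was at 5.41 and 5.48 with TCQA and at 5.28 and 5.43 in control, below the negative control median throughout, with a difference of 0.09 (SE 0.18). For these dim genes the arrays give little on the size of a difference.

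Of the 20 beta genes, 15 had a lower mean with TCQA and 5 a higher one, with a median difference of -0.13 and a range from -0.45 to 0.34. Means below control made up 75% of the beta genes, beside 48.9% of all gene probe sets. At an unadjusted p under 0.05 there was 1 gene lower and 0 higher by limma, that is 5% beside 6.24% of all gene probe sets, and 0 passed adjustment. The groups did not overlap for 6 of the 20 (30%), 5 of them with TCQA below (25%, beside 17.8% of all gene probe sets) and 1 with TCQA above (18.9% of all). The excess of lower means depends most on 1 array: without control replicate 1 the median of the beta genes was 0.04, and 9 of the 20 were lower. Without TCQA replicate 2 the excess shrank to 12 of the 20, with a median of -0.08. Without TCQA replicate 1 and without control replicate 2, 17 and 14 of the 20 were lower, with medians of -0.16 and -0.19. Beta genes resemble each other in sequence, and whether each probe set separates its gene from the neighbouring copies was not given in any source used here; no member had the same values as another probe set.

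Pcdhb17 had log2 signals of 8.57 and 8.65 with TCQA, against 9.10 and 9.01 in control. Both groups were tight and did not overlap, at 8.61 ± 0.06 and 9.06 ± 0.06 (SD, n = 2 each). The difference was -0.45 (SE 0.17, 95% confidence interval -0.87 to -0.03, limma unadjusted p = 0.0399 and adjusted p = 0.787), a 1.36-fold lower level. Leaving out any array gave -0.49 to -0.40, with no limma unadjusted p under 0.05 (0.083 to 0.147) in a fit with fewer arrays. With the replicate number as a block the limma unadjusted p was 0.059.

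After Pcdhb17, the beta genes with the smallest p were Pcdhb11, Pcdhb20 and Pcdhb10. Pcdhb11 was at 8.89 and 8.82 with TCQA and at 9.47 and 9.04 in control, a difference of -0.39 (SE 0.21). Its control arrays stood apart from each other, and leaving out control replicate 1 gave -0.18, leaving out control replicate 2 gave -0.61 (limma unadjusted p = 0.0456). Pcdhb20, the last measured gene of the cluster, was at 10.49 and 10.39 with TCQA and at 10.68 and 10.84 in control. Those groups did not overlap, and the difference was -0.32 (SE 0.18, 95% confidence interval -0.76 to 0.11). Pcdhb10 had the largest difference upward, with 9.20 and 8.83 with TCQA and 8.49 and 8.86 in control, where TCQA replicate 2 and control replicate 2 were at about the same level. It came to 0.34 (SE 0.23, 95% confidence interval -0.20 to 0.89).

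**Figure D2:**
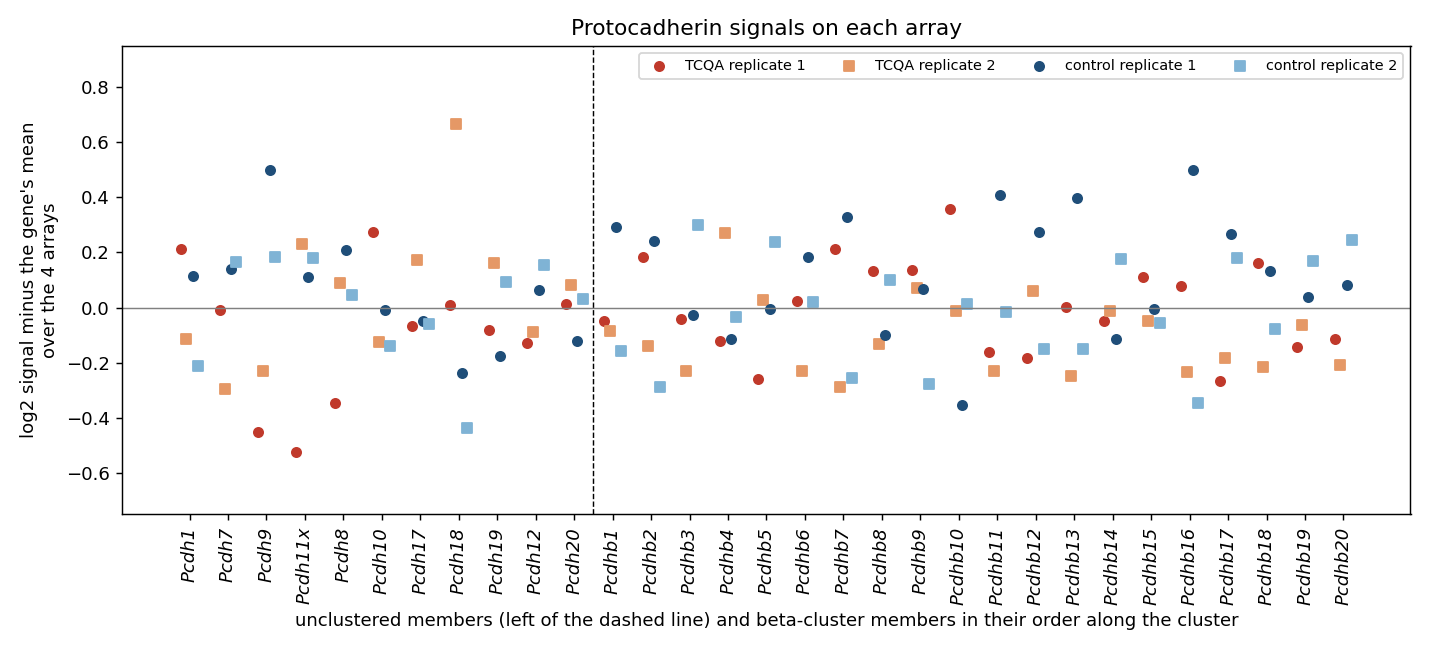
Log2 signal of each protocadherin gene on each of the 4 arrays, minus the mean of that gene over the 4 arrays (vertical axis), with circles for replicate 1, squares for replicate 2, red shades for TCQA and blue for control. For 9 of the 20 beta genes control replicate 1 is highest, while Pcdh18 stands out through TCQA replicate 2.

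Within the cluster the genes stand in the order of their numbers. The 10 measured genes from Pcdhb1 to Pcdhb10 had a median difference of -0.04, with 6 lower, and the 10 from Pcdhb11 to Pcdhb20 one of -0.18, with 9 lower; this division was made after the values were seen, and Pcdhb15 was the exception in the second set at 0.06. Of the 5 genes with TCQA below control on every array, 4 lay in the second set (Pcdhb11, Pcdhb17, Pcdhb19 and Pcdhb20) and 1, Pcdhb3, in the first. Pcdhb18, between Pcdhb17 and Pcdhb19, differed by -0.05 with overlapping groups. The genes that flank the cluster, 10 named ones on each side that are no protocadherins, had a median difference of -0.01, with 11 of 20 lower and 0 at an unadjusted p under 0.05 by limma (adjusted, 0 as well).

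Arrays of 1 group also differed in the beta genes. TCQA replicate 1 was above TCQA replicate 2 for 14 of the 20 (50.3% of all gene probe sets), and control replicate 1 above control replicate 2 for 12 of the 20 (48.1% of all). For 9 of the 20 the maximum fell on control replicate 1, as it did for 23.8% of all gene probe sets, and for 1 of the 20 on TCQA replicate 2 (25.6% of all). Pcdhb16, with 9.47 and 8.63 in control, and Pcdhb7, with 7.38 and 6.79, had the widest gaps between control arrays, each wider than its difference between groups. Excitatory neuron markers ordered the arrays alike at their extremes, with median positions, as log2 signal minus a gene's mean, of 0.02 and -0.34 with TCQA, against 0.19 and 0.04 in control. The corresponding positions of the beta genes were -0.02 and -0.14 with TCQA and 0.11 and -0.03 in control. Immediate early genes had the same extremes, with positions of -0.13 and -0.32 with TCQA and 0.37 and 0.08 in control. The part of excitatory neurons or of activity in the beta values was not tested.

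Clustered and unclustered members were then set side by side. Unclustered genes had 5 of 11 lower with TCQA and a median of 0.08 with a mean of -0.05, against a median of -0.13 and a mean of -0.11 for the clustered ones, so that the medians differed by -0.21 and the means by less. The unclustered median turned negative with any 1 array left out, from -0.066 to -0.037. Median positions of the unclustered genes were -0.07 and 0.08 with TCQA and 0.06 and 0.05 in control. Clustered minus unclustered, the positions were 0.05 and -0.22 with TCQA and 0.04 and -0.07 in control, so the 2 groups overlapped and the arrays of 1 group differed by more than the groups. The difference between the medians was -0.04 without TCQA replicate 2 and 0.09 without control replicate 1. Among members at or above the median level of all genes, 18 clustered and 8 unclustered, the medians were -0.14 and -0.09. No difference between clustered and unclustered members beyond the spread of the arrays was seen. With 2 arrays against 2, an exact two-sided permutation test could not go below p = 0.333, and none was run.

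**Figure D3:**
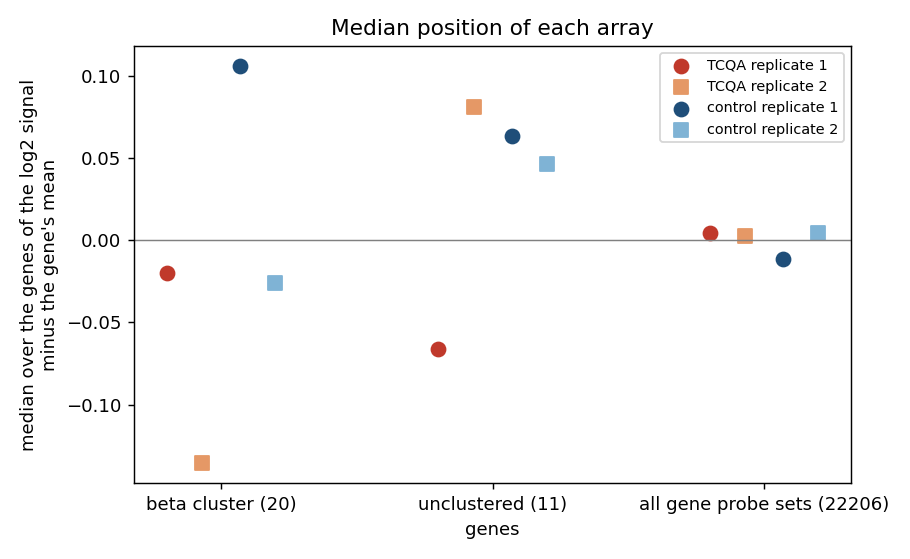
Median over the genes of the log2 signal minus each gene's mean (vertical axis) on each array, for the 20 beta-cluster genes, the 11 unclustered genes and all 22206 gene probe sets. The beta genes range from -0.14 on TCQA replicate 2 to 0.11 on control replicate 1, and all gene probe sets lie near 0.

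Sizes of change were alike in both sets: the median absolute difference was 0.18 for clustered and 0.22 for unclustered members and 0.17 for all gene probe sets. The median gap between the 2 arrays of a group was 0.25 with TCQA and 0.31 in control for the clustered genes, and 0.29 and 0.15 for the unclustered ones. Of the beta genes, 18 of 20 lay at or above the median level of all genes. Pcdhb1 lay under the negative control median on every array and Pcdhb7 on some. The unclustered genes below that median on every array were Pcdh12, Pcdh18 and Pcdh20.

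**Figure D4:**
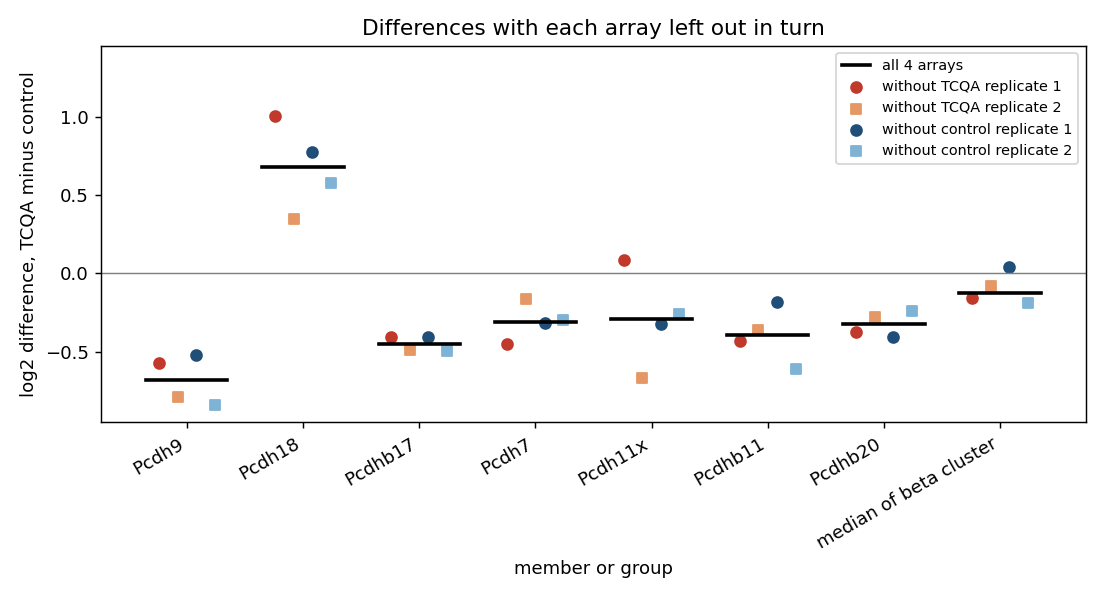
Log2 difference (TCQA minus control, vertical axis) with all 4 arrays (black line) and with each array left out in turn (points), for 7 protocadherin genes and for the median of the 20 beta genes. Pcdh9 and Pcdhb17 stay below 0 and Pcdh18 above it, while Pcdh11x reaches 0.09 without TCQA replicate 1 and the beta median 0.04 without control replicate 1.

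Genes that act on or with protocadherins were read from lists. Regulators of the cluster's promoters, which include CTCF, the cohesin subunits and loader, and DNA and histone methylation enzymes, had 8 higher and 14 lower of 22 measured, with a median of -0.11 and 0 at an unadjusted p under 0.05 by limma (and 0 adjusted). The smallest p was that of Rest, the repressor of neuronal genes, at -0.36 (SE 0.19), with log2 signals of 5.41 and 5.61 with TCQA and 6.001 and 5.74 in control. Those arrays did not overlap but were dim. Dnmt3b, a DNA methyltransferase, differed by -0.47 (SE 0.28) at a very dim level, and Wapl, which releases cohesin, by 0.24 (SE 0.18). Stag2, a cohesin subunit, differed by -0.58 (SE 0.50) through 1 high array, with 12.42 and 12.35 with TCQA and 12.13 and 13.79 in control.

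Binding partners of protocadherins and the proteases that cleave them had 16 higher and 15 lower of 31 measured, with a median of 0.06. Of these, 2 higher and 1 lower gene had an unadjusted p under 0.05, or 9.68% beside 6.24% of all gene probe sets. The groups did not overlap for 17 of the 31 (54.8%), beside 36.6% of all. Rac1, the small GTPase that drives the WAVE complex, was at 16.82 and 16.87 with TCQA and at 16.37 and 16.46 in control, a difference of 0.43 (SE 0.17). Psen2, a subunit of gamma-secretase, differed by 0.48 (SE 0.18) at a dim level. Nlgn2, the neuroligin of inhibitory synapses, whose family binds gamma protocadherins, was at 11.005 and 11.24 with TCQA and at 11.96 and 11.68 in control, a difference of -0.70 (SE 0.20). Axin1, a Wnt pathway scaffold, differed by -0.46 (SE 0.19, limma unadjusted p = 0.0513). No gene of these lists passed adjustment over all genes (smallest adjusted p = 0.787).

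Other genes of the cadherin superfamily had 13 higher and 19 lower of 32 measured and a median of -0.04, with 1 of each direction at an unadjusted p under 0.05, or 6.25% beside 6.24% of all gene probe sets. Fat4, the giant cadherin of planar polarity, was at 6.29 and 6.46 with TCQA and at 7.01 and 7.07 in control, a difference of -0.67 (SE 0.18) under the negative control median. Cdh13, the cadherin that is held by a lipid anchor, was at 10.74 and 10.73 with TCQA and at 10.06 and 10.37 in control, a difference of 0.52 (SE 0.19). Cdh19 differed by 0.47 (SE 0.21) and Cdh9 by -0.36 (SE 0.21). In these 2 the groups did not overlap either, as in 9 of the 32, beside 36.6% of all gene probe sets.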

How the data were processed

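Cortex RNA of 4 arrays, 2 per group, was hybridised to Clariom S mouse arrays. Per the labels' protocols, the authors normalized the arrays with SST-RMA in the Transcriptome Analysis Console (version 4.0.2), and they deposited 1 log2 signal for each probe set. Levels were compared between arrays; between genes they served only to tell dim from bright signal. Of 28846 rows, 6640 were control probe sets and stayed out of the tests; of the other 22206, 19572 had 1 symbol in the platform annotation, 0 had several and 2634 were unnamed here. The build of the array annotation was not given in any source used here; the promoter windows are of GRCm38.p6. Detection calls were not used, so dim genes stayed in.

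Groups came from the sample titles. All 22206 probe sets were fitted with limma 3.58.1 (R 4.3.3; lmFit and eBayes, two-sided, TCQA minus control, Benjamini-Hochberg over all of them), with 2 residual and 4.23 prior degrees of freedom, and the procedure was tested on simulated data. The number of arrays limits the precision. A list symbol with several probe sets was read from its brightest. Named were all unclustered members, the 4 beta genes with the smallest p and any beta gene at an unadjusted p under 0.05. Of each list of related or immediate early genes, the 4 with the smallest p were named. Marker lists were given as wholes, apart from Calb2 and Zic1. Calb2, Zic1 and beta genes outside this rule (Pcdhb3, Pcdhb7, Pcdhb15, Pcdhb16, Pcdhb18 and Pcdhb19) were named after their values were seen. The members, lists and tests were chosen with earlier results of these data known. Alternatives were each array left out, the replicate number as a block, quantile normalization, median centring, bright probe sets only, no moderation, a mean-dependent prior and updated symbols.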

Additional observations from a re-analysis of the deposited data

How the results depend on the processing

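Leaving out 1 array changed the counts and the medians; the arm then left with 1 array is assumed to vary like the other. The number of members at an unadjusted p under 0.05 (3 with all arrays) then ran from 0, without control replicate 1, to 2; the number past the depositors' criterion from 0 to 1; the median of the clustered members from -0.19 to 0.040, that of the unclustered ones from -0.066 to -0.037 (0.081 with all arrays), and their difference from -0.12 to 0.092. Of the 31 members, 16 changed sign with some array left out, 11 of them beta genes outside the naming rule. Named members that did were Pcdh1 (-0.066 to 0.26), Pcdh10 (-0.053 to 0.35), Pcdh11x (-0.67 to 0.087), Pcdh17 (-0.013 to 0.23) and Pcdh19 (-0.053 to 0.21), none of them past a threshold with all arrays. With bright probe sets only, which leaves 26 members, the median of the unclustered members was -0.087 and the difference between the medians -0.052. Quantile normalization, median centring, a mean-dependent prior and updated symbols left 3 members at that p, the same genes; without moderation there were 2 (Pcdhb17 and Pcdh12). With the replicate number as a block there were 2, Pcdh9 and Pcdh18. Same-numbered arrays of the groups deviated together weakly (correlation 0.05 across all gene probe sets, and 0.26 across the 31 members), and the labels tie the numbers to nothing shared. No alternative brought a member past Benjamini-Hochberg adjustment. Signal limits the dim members: Pcdh12, Pcdh18, Pcdh20 and Pcdhb1 lay under the negative control median on all arrays. Dim signal is not confined to these, since the negative control upper quartile was 8.55 to 8.75. Pcdh8 and Pcdhb7, among others, lay under that range on all arrays, and the TCQA signals of Pcdhb17 (8.57 and 8.65) within it.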
